A study of Mus musculus with 13 samples.

Results

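Regions that gained histone H3 lysine 27 acetylation (H3K27ac) after 4 h of IL-4, and had no called acetylation when IFNg was given together with IL-4, numbered 2035 of the 39569 regions found in the series. They were chosen by presence alone: enriched islands of all 13 libraries that overlapped were merged into regions, and a region was taken where the library of IL-4 at 4 h had an island and the libraries of untreated cells, IFNg at 4 h and IFNg plus IL-4 at 4 h had none. An island is a stretch that the authors' peak caller found enriched over a control library. The level in IL-4 at 4 h and the absence of an island in the other 3 libraries were therefore selected on, and are given as a description. Islands of the remaining 9 libraries were neither required nor excluded, but they entered the merging and so affected which regions qualified. With islands merged over the 7 libraries without an shRNA, 2287 regions qualified. Regions that met the same conditions but also held an island with IFNg plus IL-4 at 4 h numbered 946 and are called the kept regions. The lost regions made up 68.3% of the 2981 regions gained with IL-4, and 8.68% of the 23439 regions with an island after 4 h of IL-4. Of the 5530 regions gained with IFNg instead, 50.4% had no island when both cytokines were given.

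H3K27ac marks active promoters and enhancers, and its gain away from promoters is commonly read as enhancer activation. IL-4 acts in macrophages through the transcription factor STAT6 and drives alternative activation, with genes such as Retnla, Chil3 and Arg1 among its best known targets. IFNg drives classical, inflammatory activation, and macrophages given both cytokines express only part of each programme. JunB belongs to the AP-1 family and C/EBP-beta to the C/EBP family of transcription factors, and both are used by activated macrophages.

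All libraries came from primary macrophages of C57BL/6 mice, grown from bone marrow with L929-conditioned medium and taken on day 7 of differentiation. Without an shRNA in the labels there were untreated cells, cells given IFNg at 100 ng/ml, IL-4 at 10 ng/ml, or both, each cytokine condition for 2 h and for 4 h. A further 6 libraries held cells with a scramble shRNA, shJunB or shCEBP-beta, each untreated and after 4 h of IFNg at 100 ng/ml. For short these 6 are called knockdown libraries, although they include the scramble control. Whether JunB or C/EBP-beta was reduced was not tested. Each condition had 1 library, and the labels do not say how many mice a library came from. Intervals below cover counting error only, not the variation between cultures. Total reads per library ranged from 14.3 M (scramble with IFNg) to 37.4 M (IFNg plus IL-4 at 4 h), with 25.5 M for IL-4 at 4 h. Of the 3 libraries in which islands had to be absent, that with both cytokines was 1.47 times and that with IFNg 1.40 times as deep as IL-4 at 4 h. The untreated library was shallower, at 0.853 times. Regions over all 8 macrophage markers were called in all 13 libraries, with a summed level of 45396 to 67849 normalised reads. The summed levels ranged from 7166 to 13456 for 5 T cell markers, 2529 to 7894 for 4 B cell markers, 326 to 2040 for 5 neutrophil markers and 6213 to 14839 for 4 dendritic cell markers. Those of mast cells and basophils reached at most 45 and those of fibroblasts at most 51.8. The defining markers Cd8a, Pax5, S100a9, Ly6g, Mpo, Mcpt8, Fcer1a, Col1a2, Pdgfra and Dcn were called in none, and a part of other cells in the results was not tested.

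Among the lost regions that held the start site of a protein-coding gene, those at Retnla and Chil3, secreted proteins that define alternatively activated mouse macrophages, are shown first because both genes are classical IL-4 targets. The 250 bases before each start are given as RefSeq lists them for GRCm38.p6, read 5′ to 3′ in the direction of the gene, with motif matches in capitals. Cyp27b1, which encodes the enzyme that makes active vitamin D, is shown for its STAT6 motif, and Cck, which encodes the peptide hormone cholecystokinin, as the start-site region with the most reads. The stretches lie at chr16:48842359-48842608 on the plus strand (Retnla), chr3:106167565-106167814 on the minus strand (Chil3), chr10:127047996-127048245 on the plus strand (Cyp27b1) and chr9:121495695-121495944 on the minus strand (Cck).
Retnla: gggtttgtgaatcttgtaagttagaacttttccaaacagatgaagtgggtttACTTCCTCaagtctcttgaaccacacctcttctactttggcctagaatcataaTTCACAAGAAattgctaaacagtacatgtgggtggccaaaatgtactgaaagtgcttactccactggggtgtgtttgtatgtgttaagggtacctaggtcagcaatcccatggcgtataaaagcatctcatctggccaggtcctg
Chil3: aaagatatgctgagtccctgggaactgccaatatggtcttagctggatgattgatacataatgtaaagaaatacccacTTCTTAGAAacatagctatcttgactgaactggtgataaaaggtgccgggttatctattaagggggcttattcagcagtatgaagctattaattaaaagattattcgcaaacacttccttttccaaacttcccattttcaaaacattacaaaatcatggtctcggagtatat
Cyp27b1: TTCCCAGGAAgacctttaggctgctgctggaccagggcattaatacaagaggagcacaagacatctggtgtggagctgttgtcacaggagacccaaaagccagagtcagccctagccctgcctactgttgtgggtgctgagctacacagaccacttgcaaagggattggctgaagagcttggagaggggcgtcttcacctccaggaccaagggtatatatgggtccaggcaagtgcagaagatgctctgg
Cck: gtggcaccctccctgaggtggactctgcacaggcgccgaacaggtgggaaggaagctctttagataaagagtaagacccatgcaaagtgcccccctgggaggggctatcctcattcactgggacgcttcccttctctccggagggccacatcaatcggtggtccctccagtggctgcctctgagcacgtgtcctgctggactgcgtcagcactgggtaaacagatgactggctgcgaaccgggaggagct
In the Retnla promoter TTCACAAGAA, the spacing that STAT6 prefers, began 145 bases before the start, and ACTTCCTC, the reverse complement of the PU.1 motif searched, began 198 bases before it. In the Chil3 promoter TTCTTAGAA, the spacing of a GAS (gamma-activated site) element, began 172 bases before the start. In the Cyp27b1 promoter TTCCCAGGAA began 250 bases before the start, and the Cck promoter held none of the 6 motifs.

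The 6 motifs were searched on both strands in the 250 bases before 84 starts of 76 genes held by lost regions, and in all 21263 promoters of protein-coding genes. TTCNNNNGAA (STAT6) was in 3.57% of the promoters in lost regions and in 5.39% of all. TTCNNNGAA (GAS) was in 3.57% and 6.58%, TGANTCA (AP-1) in 1.19% and 6.13%, and GAGGAAGT (PU.1) in 2.38% and 2.23%. GAAANNGAAA (core of the interferon-stimulated response element) was in 1.19% and 2.96%, and TTGCGCAA (C/EBP) in 0 of the 84 and in 0.198% of all. A match is a description of letters in this window. Only 74 of the 2035 lost regions held a start site, so these promoters represent a small share of them.

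The lost regions were small. They had a median of 58.4 normalised reads after 4 h of IL-4 (range 17.6 to 701), against 122 in the kept regions and 280 over all regions with an island in that library. Their median called length was 2000 bp, against 3200 bp and 3600 bp, and their median density 31.9 normalised reads per kb, against 40.1 and 69.5. The authors' fold over the control had a median of 2.34, against 3.12 and 4.11. An FDR of 1e-05 or less was listed for 72.7% of lost, 88.4% of kept and 92.0% of all such regions. Normalised reads are ChIP reads within islands divided by a library's size factor, so a longer region holds more of them. Together the lost regions held 0.714% of the reads of the IL-4 library.

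Because only islands past the authors' FDR threshold of 0.01 are listed, absence means not called and is no measurement of zero. At the threshold, the regions inside with the highest FDR in IL-4 at 4 h lay at Rmdn1 and Wwp1 (FDR 0.00992, 138.1 normalised reads), near Rap2b (0.00966, 40.8 reads) and in Rbbp9 (0.00966, 40.8 reads). Just outside, regions at Cyrib, 397.0 kb from Gsdmc and at Myo18a were kept because their islands with both cytokines had FDRs of 0.00949, 0.00946 and 0.00943, with 53.7, 92.7 and 47.3 normalised reads in IL-4 and 63.5, 77.6 and 61.5 with both. The smallest islands also differed between libraries: the 5th percentile of reads per island was 38.0 normalised reads in IL-4 at 4 h, 43.5 with both, 42.8 in IFNg at 4 h and 57.1 in untreated cells. Of the lost regions 1483 exceeded that level of the library with both cytokines. The level of the untreated library, 57.1, was close to the lost regions' median of 58.4 reads in IL-4 at 4 h. Many of them were thus no larger than the smallest islands of untreated cells.

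Most lost regions lay outside promoters. Of the 2035, 1100 (54.1%) touched the span of a protein-coding gene, against 53.8% of kept regions and 67.6% of all regions. A start site was held by 3.64% of lost regions, 6.45% of kept regions and 22.2% of all regions. More than 100 kb from any protein-coding gene lay 304 lost regions (14.9%), against 12.5% of kept and 7.16% of all regions. The nearest island of the library with both cytokines at 4 h was a median of 12.8 kb away, and 478 lost regions (23.5%) had one within 5 kb.

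The largest lost region lay in an annotated gene, Pde4d, which encodes a phosphodiesterase that degrades cyclic AMP. It spanned chr13:108692001-108716200 (mm10, as all coordinates here) and had 1014.3 normalised reads at 2 h and 700.6 at 4 h of IL-4. No island was called there with IFNg alone or with both at 2 h. A second Pde4d region, chr13:108718401-108727800, had 609.2 and 393.8 reads and was likewise not called in those libraries. The region over Cck, chr9:121475401-121497200, had 566.3 reads at 2 h and 670.0 at 4 h. It also had islands of 142.7, 153.6 and 175.9 reads in the untreated scramble, shJunB and shCEBP-beta cells and none in any of the 3 after IFNg.

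Hhip encodes the hedgehog-interacting protein, an inhibitor of hedgehog ligands. The region chr8:80013801-80025800 in this gene had 232.6 reads at 2 h and 546.7 at 4 h of IL-4, and 57.8 with both at 2 h. IL-4 exceeded both cytokines at 2 h there by 4.03-fold (95% interval 3.01 to 5.47), a log2 ratio of both to IL-4 of -2.01 that was -0.38 per kb of called length. The region over the Hhip start, chr8:80056401-80065400, had 302.0 and 510.6 reads at 2 h and 4 h of IL-4 and was called in no other library. A region 114.5 kb from Hhip had 128.6 and 494.9 reads. All 3 were larger at 4 h than at 2 h of IL-4.

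Further regions among the 12 with the most reads at 4 h were in or near genes of varied function. A region 338.2 kb from Tcf4, a basic helix-loop-helix transcription factor gene, had 237.7 reads at 2 h and 563.4 at 4 h. A region in Mlh3, a DNA mismatch repair gene, had 501.0 and 553.2. A region in Nbeal1 had 505.0 reads at 4 h and no island in any other library. A region 24.3 kb from Gm5150 had 332.6 reads at 2 h, 497.6 at 4 h and 73.7 with both at 2 h, so that IL-4 exceeded both by 4.51-fold (3.5 to 5.89) at 2 h. The log2 ratio of both to IL-4 there was -2.17, against -1.62 per kb of called length and -3.41 after subtracting the scaled control. A region in Cabcoco1 had 186.7 and 495.8 reads. A region 29.9 kb from Rad51b, a gene of homologous recombination, had 394.9 and 484.7 reads with IL-4 and 132.8 with IFNg at 2 h. Like Cck it was called in untreated knockdown cells, at 274.5 in scramble, 302.4 in shJunB and 348.4 in shCEBP-beta cells, and at 137.0 in shJunB cells after IFNg.

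**Figure D1:**
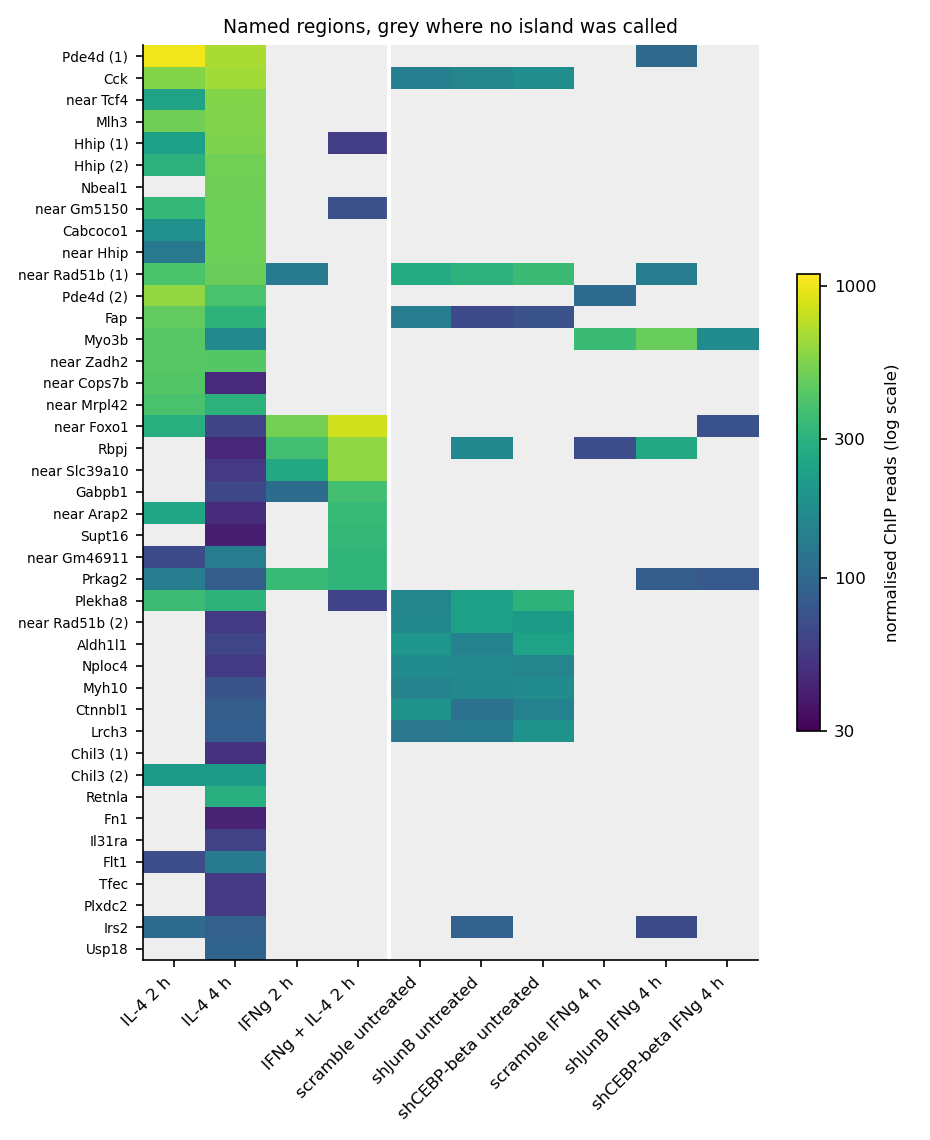
Normalised ChIP reads (colour, log scale) of named lost regions (vertical axis), with grey where no island was called. The horizontal axis gives the IL-4 library at 4 h and the 9 libraries that entered only the merging. Regions are labelled by the gene they touch or are nearest to. Some rows were named for having an island with IL-4 and none with IFNg or both at 2 h, and are grey there by choice. The block from Foxo1 to Gm46911 was named for its reads with both at 2 h, and is brightest there by choice.

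IL-4 for 2 h gave a first reading of these regions in a library that entered only the merging. An island was present at 2 h of IL-4 in 783 of 2035 lost regions (38.5%, exact Clopper-Pearson 95% interval 36.4 to 40.6), in 73.6% of kept regions and in 53.7 percent of all regions. Over the 783 regions called at both times the median log2 ratio of 4 h to 2 h was -0.18. It is a description, since 4 h was selected on. The time course differed by region: the one 14.4 kb from Cops7b, a subunit gene of the COP9 signalosome, went from 422.4 reads at 2 h to 46.3 at 4 h, while that in Cabcoco1 was 2.66 times as high at 4 h. In no other library than IL-4 at 4 h were 845 lost regions (41.5%) called. Of the kept regions 113 (11.9%) were called in no library besides IL-4 and both at 4 h.

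With both cytokines at 2 h, fewer lost than kept regions were already called. An island was present in 244 lost regions (12%, 10.6 to 13.5), against 59.6% of kept regions and 60.9 percent of all regions. IFNg alone at 2 h had an island in 134 lost regions (6.58%, 5.55 to 7.75), against 18.5% of kept and 57 percent of all regions. Among regions with an island at 2 h of IL-4 and none in untreated cells, the one with both cytokines at 2 h was present in 161 of 783 lost regions (20.6%, 17.8 to 23.6) and in 490 of 696 kept regions (70.4%, 66.9 to 73.8). The same share over all regions of that kind was 54.2 percent. The shares of lost and kept regions lay outside each other's counting intervals, but each comes from a single pair of libraries. The kept regions were also larger, and the part of size in this difference was not tested. Among regions with at least 50 normalised reads at 4 h of IL-4, both cytokines at 2 h had an island in 14.0% of lost and 64.1% of kept regions.

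**Figure D2:**
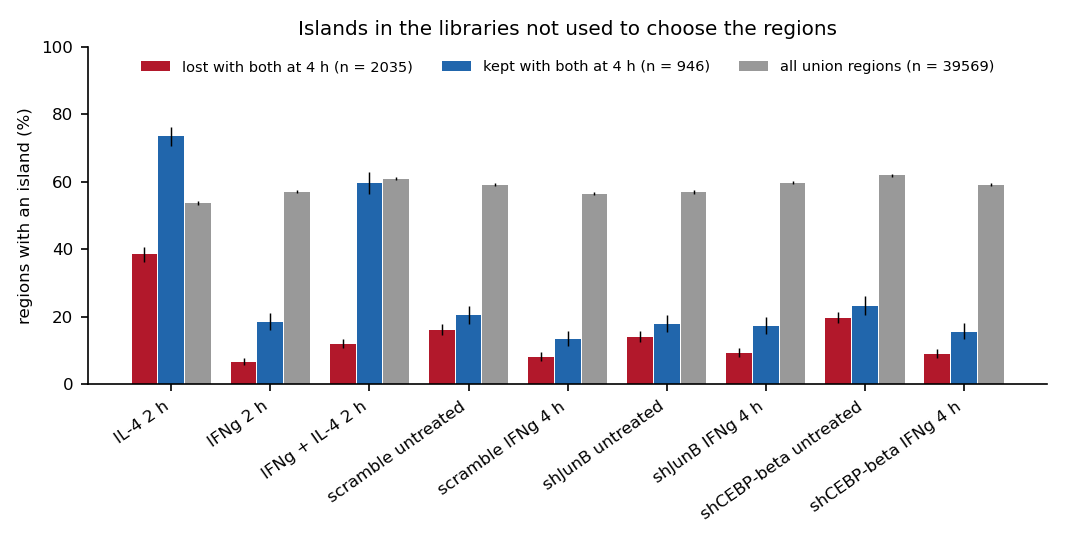
Share of regions with an island (percent, vertical axis) in each of the 9 libraries that entered only the merging (horizontal axis). Lost regions are red, kept regions blue and all regions grey, with bars for exact 95% counting intervals. Lost regions reach 38.5% with IL-4 at 2 h and 12% with both at 2 h, against 73.6% and 59.6% of kept regions.

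The number of reads at 2 h was compared next. Calls of higher or lower required a 2-fold difference and 50 normalised reads in the larger of the pair. Where one of the pair had no island, the 5th percentile of reads per island in that library stood in. It was 43.8 normalised reads with both and 56.1 with IL-4, so a call of lower needed fewer reads than a call of higher. With both cytokines against IL-4 alone at 2 h, 397 of 866 lost regions measured (45.8%) were lower, where 13.1 percent of all 26784 regions measured were lower. Higher with both were 31 lost regions (3.58%), where 17.3 percent of all regions were. Of the 161 lost regions called in both libraries 64 (39.8%) were lower and 10 higher. Over all such regions 11.6 percent were lower and 13.6 percent higher. The remaining calls in lost regions rest on the stand-in. Of the kept regions 300 of 770 (39.0%) were lower and 98 (12.7%) higher. Over the 161 lost regions called in both libraries the median log2 ratio was -0.64, with 126 below and 35 above 0, and the median over all such regions was -0.06. Kept regions called in both had a median of -0.54, with 329 below and 161 above 0. In those 161 the median called length was 4 kb with IL-4 and 2.4 kb with both, and 129 had a shorter called length with both, as had 350 of 490 kept regions. Per kb of called length the median log2 ratio was -0.01, so the difference in reads went with the length called as enriched. The calls then dropped to 19 lower (2.19%, against 2.22 percent of all regions) and 9 higher, where 8.43 percent of all regions were higher. The share called lower was then close to that over all regions.

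**Figure D3:**
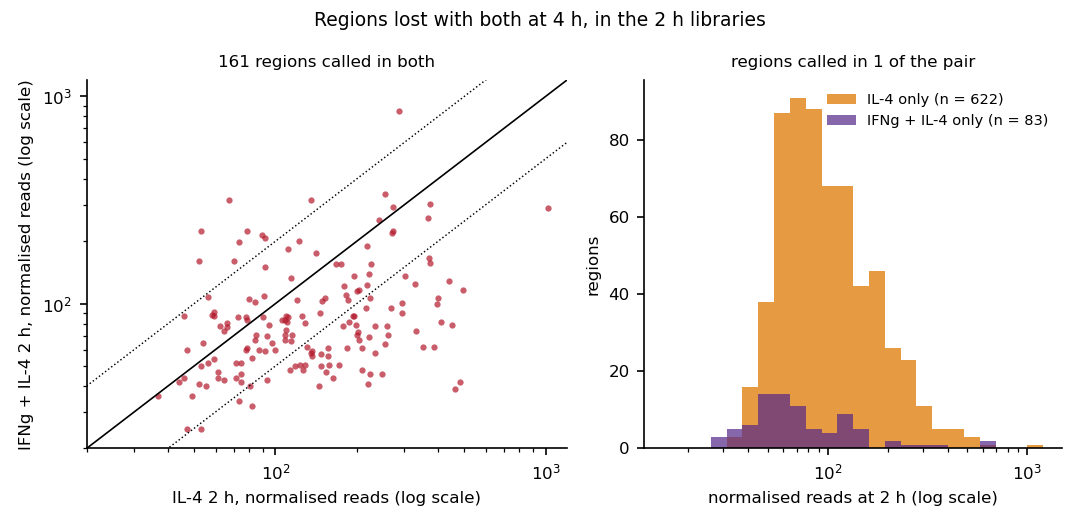
Left, normalised reads with IFNg plus IL-4 (vertical axis) against IL-4 (horizontal axis) at 2 h for the 161 lost regions called in both, on log axes, with the line of equality and dotted lines at 2-fold. Right, number of regions by normalised reads for those called with IL-4 but not both and with both but not IL-4. Of the 161 points 126 lie below the line.

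At 2 h, 576 lost regions (28.3%) had an island with IL-4 and none with IFNg or with both, a combination found in 20.8% of kept regions and 5 percent of all regions. Besides Pde4d, Cck and Mlh3, the 10 with the most reads included Fap, which encodes a membrane serine protease, with 460.2 reads at 2 h and 305.8 at 4 h. They also included a region 0.872 kb from Zadh2 (429.6 and 422.6), one 2.604 kb from Mrpl42, a mitochondrial ribosome gene (391.8 and 304.9), and one in Myo3b, a class III myosin gene (429.6 and 165.0). The Myo3b region had no island in untreated knockdown cells but 351.8, 476.9 and 171.0 reads in scramble, shJunB and shCEBP-beta cells after IFNg. It thus held no island after 4 h of IFNg in cells without an shRNA and an island after the same treatment in all 3 shRNA backgrounds.

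A minority went the other way at 2 h. The 8 lost regions with the most reads with both cytokines at 2 h were led by one 17.7 kb from Foxo1, a forkhead transcription factor gene. It had 845.9 reads with both, 520.3 with IFNg and 286.7 with IL-4 at 2 h, and 63.0 with IL-4 at 4 h. A region in Rbpj, the DNA-binding factor of Notch signalling, had 604.8 reads with both, 374.3 with IFNg and no island with IL-4 at 2 h. A region 34.4 kb from Slc39a10, a zinc transporter gene, had 602.8 with both and 265.6 with IFNg, and one in Gabpb1, 376.6 and 107.6. Neither was called with IL-4 at 2 h. The region 16.6 kb from Arap2 had 338.8 with both and 254.1 with IL-4, and that in Supt16, a histone chaperone subunit gene, 329.8 with both only. The region 37.9 kb from Gm46911 had 316.8 with both against 67.3 with IL-4. That in Prkag2, a regulatory subunit gene of the AMP-activated kinase, had 314.9 with both, 346.9 with IFNg and 135.7 with IL-4. In IL-4 at 4 h these 8 held 40.8 to 137.2 reads, and each had an island with both at 2 h and none at 4 h.

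The knockdown cells received no IL-4, and some lost regions were called in them untreated. Islands were present in untreated scramble, shJunB and shCEBP-beta cells in 16.1%, 14.1% and 19.7% of lost regions, against 59.1 percent, 57 percent and 62 percent of all regions. After 4 h of IFNg the shares were 8.11%, 9.34% and 8.94%, against 56.5 percent, 59.7 percent and 59.1 percent of all regions. Kept regions were at 20.4%, 17.8% and 23.2% untreated and at 13.4%, 17.2% and 15.5% after IFNg. A total of 1430 lost regions were called in none of these 6 libraries and 605 (29.7%) in at least 1, against 35.1% of kept regions and 79.7 percent of all regions. Untreated cells with no shRNA and untreated scramble cells thus did not have the same regions called, and the labels do not say that they were cultured together.

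Within each shRNA background, the share of lost regions called only in untreated cells exceeded the share called only after IFNg. Of those called in either scramble library, 219 of 384 (57.0%, 51.9 to 62.0) were called only in untreated cells, a share of 16.5 percent over all regions. In shJunB cells it was 178 of 368 (48.4%, 43.2 to 53.6), against 13 percent. In shCEBP-beta cells it was 272 of 454 (59.9%, 55.2 to 64.5), against 16.6 percent. Only after IFNg were 14.8%, 22.0% and 11.7% called, against 12.6 percent, 16.9 percent and 12.6 percent over all regions. In kept regions these shares were 12.7%, 25.3% and 13.1%. The choice of regions had excluded those called after IFNg in cells without an shRNA but also those called in untreated ones. These exclusions were uneven: the libraries of IFNg and of both at 4 h had 35.7 M and 37.4 M reads, the untreated one 21.7 M. Whether this added to the untreated-only shares was not tested. In kept regions the untreated-only shares were 42.5%, 27.6% and 41.7%. The scramble library with IFNg was the shallowest, while the IFNg libraries of the other backgrounds were 22.2 and 23.9 M reads deep against 24.2 and 29.5 M untreated.

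Of the 605 lost regions called in any knockdown library, 60 (9.92%, 7.65 to 12.6) had an island in all 3 untreated libraries and in none after IFNg. The share was 6.02% of kept regions (20 of 332, 3.72 to 9.15) and 3.94 percent of all regions. The reverse held for 9 lost regions (1.49%), against 1 kept region (0.301%) and 4.85 percent of all regions. Kept regions thus leaned the same way. Cck was 1 of the 8 regions of the first kind with the most reads. Another lay in Plekha8, a glycolipid transfer protein gene, with 157.8, 234.2 and 308.3 reads in untreated scramble, shJunB and shCEBP-beta cells. The Plekha8 region held 353.1 reads with IL-4 at 2 h, 309.5 with IL-4 at 4 h and 61.8 with both at 2 h, so that IL-4 exceeded both by 5.72-fold (4.35 to 7.62). The log2 ratio of both to IL-4 at Plekha8 was -2.51, against -1.13 per kb of called length and -3.84 after subtracting the scaled control. Aldh1l1, a folate enzyme gene, had 198.9, 146.0 and 242.1 reads in the untreated backgrounds and 63.9 with IL-4 at 4 h. A region 93.7 kb from Rad51b had 161.0, 232.3 and 214.2, and one in Nploc4, which encodes a cofactor of the p97 ATPase, 169.7, 165.0 and 155.0. The start-site region of Myh10, a non-muscle myosin gene, had 150.2, 161.2 and 171.6 reads, Ctnnbl1 had 189.1, 115.7 and 146.3, and Lrch3 had 125.4, 132.7 and 191.6. These last 6 had no island at 2 h of IL-4 and 55.6 to 88.0 reads at 4 h.

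A test across libraries was possible for 4 h of IFNg over the 3 shRNA pairs, in regions with an island in all 6 knockdown libraries. Only 58 lost regions (2.85%) entered it, out of 17047 regions fitted together. The 3 pairs carry different shRNAs and are not replicates of 1 condition. The test asks for a mean change with IFNg over the 3 pairs, not for a change in each. By edgeR's quasi-likelihood test with Benjamini-Hochberg adjustment over all regions, 10 lost regions fell and 2 rose with adjusted p under 0.05. Over all regions 21.9 percent fell and 22.7 percent rose. The median log2 change was -0.19 in the 58 and 0.01 in all regions. Of 64 kept regions in the fit 9 fell and 1 rose, with a median of -0.18. Since a region had to keep an island after IFNg to enter, regions not called after IFNg are outside this test, and the 58 do not stand for all lost regions.

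The region over the start of Ccdc9b, chr2:118759601-118765600, had the lowest adjusted p. It held 298.3, 168.8 and 242.1 reads in untreated scramble, shJunB and shCEBP-beta cells and 106.3, 64.7 and 131.2 after IFNg. Every untreated library was above every IFNg library. The log2 change was -1.25 ± 0.32 (SD over n = 3 pairs), with an adjusted p of 0.00508 by edgeR. With IL-4 in cells without an shRNA the Ccdc9b region had 61.2 reads at 2 h and 55.6 at 4 h. The region in Pde3b, a cyclic nucleotide phosphodiesterase gene, at chr7:114412001-114424200 held 538.2, 493.0 and 414.5 reads untreated and 369.8, 230.2 and 211.7 after IFNg. Its groups did not overlap either, and its log2 change was -0.87 ± 0.29 (SD, n = 3 pairs; edgeR adjusted p 0.00743). That region had 210.2 reads at 2 h and 76.0 at 4 h of IL-4. The region in Nav2 held 184.8, 218.1 and 189.9 reads untreated and 90, 110.7 and 121.3 after IFNg, again without overlap (log2 -0.89 ± 0.21, SD, n = 3 pairs; edgeR adjusted p 0.00981). It had 65.8 reads at 4 h of IL-4 and no island at 2 h. At Ccdc9b, Pde3b and Nav2 alike, reads at 4 h of IL-4 were below those of every untreated shRNA library.

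Regions at Iqsec2, a guanine nucleotide exchange factor gene, near Litaf, and at Nanos1, an RNA-binding protein gene, also fell, by 0.81, 0.84 and 0.61 on the log2 scale. The remaining regions that fell lay near Klhl7, B3gnt2, Ephb3 and Zfp956. The 2 that rose were at Arhgef19, a guanine nucleotide exchange factor gene, with log2 0.72 ± 0.32, and Cyp27b1, with 0.57 ± 0.09 (SD, n = 3 pairs; edgeR adjusted p 0.0231 and 0.0330). Cyp27b1 held 60.5, 56.9 and 90.6 reads untreated and 96.5, 83.3 and 127.2 after IFNg, so its groups overlapped although each pair rose. Ccdc9b, Pde3b and Nav2 stayed under 0.05 with each shRNA pair left out in turn, and the other 9 each lost the call without at least 1 pair, none with a change of sign. Without the scramble pair 4 lost regions fell and 1 rose, without the shJunB pair 11 and 0, and without the shCEBP-beta pair 4 and 0. Over all 17047 regions 2660 to 2913 fell and 2906 to 2942 rose in these fits.

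**Figure D4:**
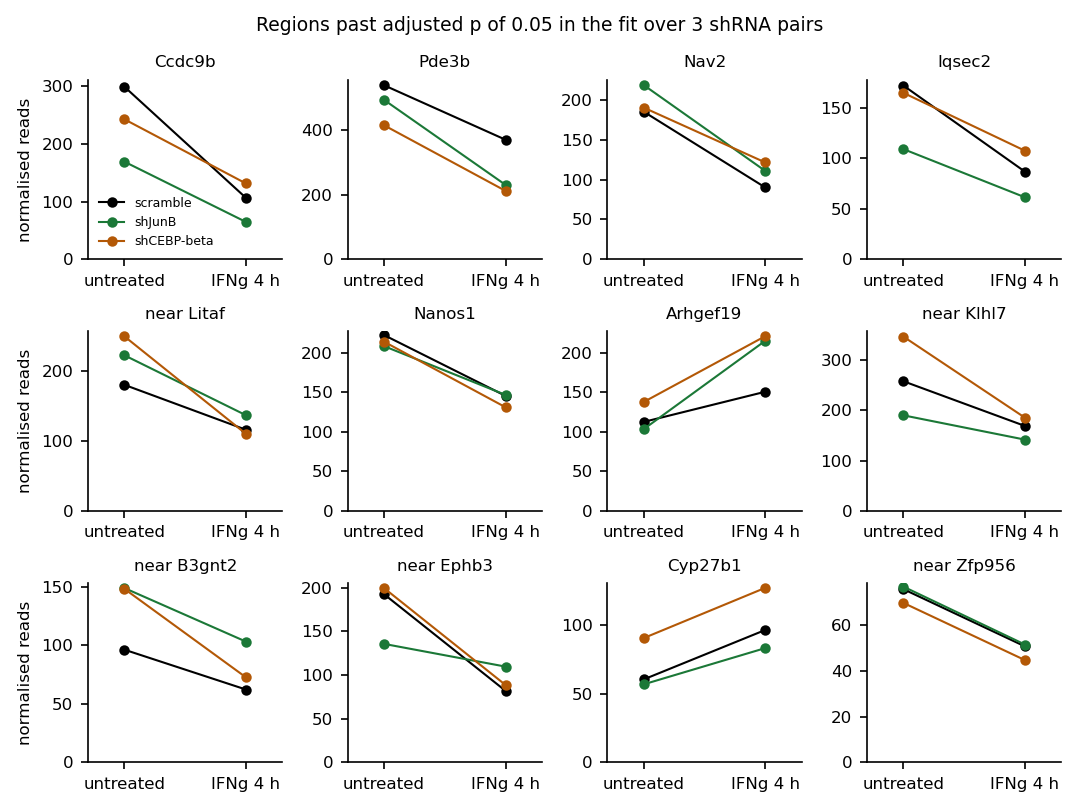
Normalised reads (vertical axes, from 0) without treatment and after 4 h of IFNg in scramble (black), shJunB (green) and shCEBP-beta (brown) cells for the 12 lost regions with an edgeR adjusted p under 0.05. Lines join the libraries of a background; all lines slope down except at Arhgef19 and Cyp27b1.

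Of the genes of alternative activation, 7 of 39 had a lost region within their span or 1 kb of it, against 4.30% of the 21900 protein-coding genes, and 2 had a kept region. The count of kept regions depended on the distance allowed: with the span alone 1 gene had one, and within 10 kb 8 had a kept and 7 a lost region, against 3.0% and 5.95% of all protein-coding genes. The genes of this list were chosen with results of these data known, so the count describes them and is no independent evidence. Retnla had a region at chr16:48839601-48844600 over its start, with 291.9 reads at 4 h of IL-4 and no island at 2 h of any treatment or in any knockdown library. Chil3 had a start-site region at chr3:106166601-106171800 with 212.2 reads at 2 h and 212.2 at 4 h of IL-4. A second Chil3 region had 50.0 reads at 4 h only. No Chil3 or Retnla region was called with IFNg or with both at 2 h. Flt1, a VEGF receptor gene, had 70.4 reads at 2 h and 134.4 at 4 h. Fn1 (fibronectin) had 42.6, Il31ra (a subunit of the interleukin-31 receptor) 61.2, Tfec (a basic helix-loop-helix transcription factor) 54.7 and Plxdc2 54.7 at 4 h. None of these had an island in the 9 libraries that entered only the merging. The nearest island with both cytokines at 4 h lay only 0.4 kb from the Il31ra region and 0.8 kb from the Fn1 region. It lay 6 kb from the Retnla region and 8.8 to 70 kb from the other regions of this list.

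Among 17 IL-4 signalling genes 1 had a lost region, Irs2, the insulin receptor substrate that IL-4 receptors use. It had 106.1 reads at 2 h and 90.8 at 4 h of IL-4, and islands of 92.0 and 68.0 reads in untreated and IFNg-treated shJunB cells. Among 15 IFNg signalling genes 1 had one, Usp18, the protease that removes ISG15, with 95.4 reads at 4 h of IL-4 only. None of 22 classical activation genes and none of 18 housekeeping genes had a lost region within 1 kb of their span, where 4.30% of all protein-coding genes did. Within 10 kb 1 gene of each list did, Icam1 and Eef1a1, against 5.95% of all protein-coding genes. In these lists a count of 0 or 1 gene is close to the share over all genes. Hivep3 was 1 of 32 macrophage transcription factor genes and the scavenger receptor gene Msr1 1 of 25 lipid and sterol genes with one. Of 20 adhesion and guidance genes 4 had one: Cd44, Sema6d, Itga9 and Itgb3. Itgb3, an integrin subunit gene, had 255.1 reads with IL-4 and 63.8 with both at 2 h (4.00-fold, 3.03 to 5.35), and 56.5 with IL-4 at 4 h. Per kb of called length the Itgb3 ratio turned to the other side, at a log2 of 0.074 for both over IL-4. Of the cell type markers, Zbtb46, 1 of 4 for dendritic cells, had a lost region, with 31.5 reads at 4 h of IL-4.

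Lost regions also occurred in groups. Chained across gaps of up to 50 kb, a rule chosen after the data were seen, 396 of them (19.5%) lay in 80 groups of 3 or more. With gaps of up to 20 kb it was 229. Groups of 8 or more numbered 10, with 134 lost regions. The number of groups depends on how many regions a set holds, so no comparison with the smaller set of kept regions is made. The contrast of IL-4 with both at 4 h within a group was selected on and is given as a description.

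The largest group held 30 lost regions in an interval with no protein-coding gene between Myc, the proto-oncogene, and Gsdmc, a gasdermin gene, at chr15:62923401-63424200. After 4 h of IL-4 it held 57 islands over 249.4 kb, with 7563 normalised reads and 30.3 per kb. With both at 4 h it held 27 islands over 114.2 kb, with 3163 reads and 27.7 per kb. It held 0 islands in untreated cells and 9 after 2 h of IL-4, and only 1 of its 30 lost regions was called at 2 h of IL-4 and 0 with both at 2 h. A further 2 groups of 9 and 8 lost regions lay in the same interval, at chr15:62438601-62644800 and chr15:62696401-62869600. The group of 12 over Hhip, chr8:80013801-80257400, held 15 islands over 145.6 kb after 4 h of IL-4 (8427 reads, 57.9 per kb) and 4 over 33.8 kb with both at 4 h (1584 reads, 46.9 per kb). IFNg at 4 h had 0 islands there. At 2 h, in libraries that entered only the merging, 8 of its 12 lost regions were called with IL-4 and 1 with both.

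**Figure D5:**
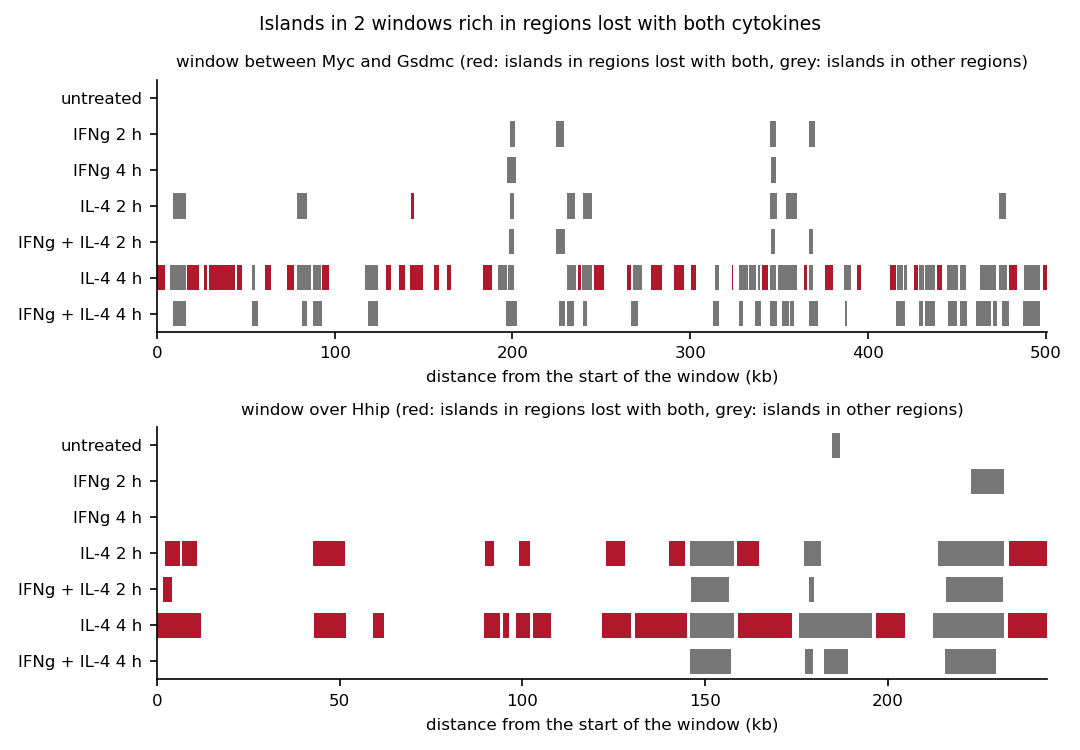
Islands (bars) of the 7 libraries without an shRNA by distance from the start of the window (kb, horizontal axis) in the window between Myc and Gsdmc and in the window over Hhip, red in lost regions and grey in other regions. The red bars of IL-4 at 4 h recur with IL-4 at 2 h in 8 of 12 lost regions at Hhip and in 1 of 30 between Myc and Gsdmc.

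Other groups lay over Htr1f, a serotonin receptor gene (18 lost regions), between Mc2r and Tcf4 (17 and 9), between Zeb2 and Acvr2a (12 and 9), and between Fn1 and Mreg (10). In the Htr1f group 0 of 18 lost regions were called at 2 h of IL-4, and in the larger Mc2r to Tcf4 group 5 of 17 were. None of the lost regions in these 10 groups was called with IFNg at 2 h. Lost regions in 1 of the 10 groups, the larger between Zeb2 and Acvr2a, were called in knockdown libraries, 4 of its 12.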

How the data were processed

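H3K27ac ChIP-seq of mouse macrophages was deposited as 1 list of islands per library. Per the submitters' processing notes, the authors used Bowtie2 2.2.6 and SICER 1.1, with the builds mm10 and GRCm38. The deposited counts are raw ChIP and control reads per island, and the deposited fold is a ratio to the scaled control. SICER's p-value and FDR per island were deposited as well. File names give an FDR of 0.01, and island edges lie on a 200 bp grid. The control's origin and any filter on duplicate reads are not given in the sources used here.

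Islands overlapping by at least 1 bp were merged. Region reads were scaled by size factors (median of ratios over the 14347 regions called in all 13 libraries). Total depth was worked out from the deposited fold values. For size calls an absent island was replaced by the 5th percentile of island reads in that library. edgeR 4.0.16 (R 4.3.3) fitted raw counts with TMM scaling and the shRNA background as a block, in regions with an island in all 6 knockdown libraries. DESeq2 1.42.0 was an alternative. Other steps used Python 3.11.15. Scripts were tested on simulated data. Genes and promoters are RefSeq's for GRCm38.p6.

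Members of the region class and gene lists were chosen with earlier results of these data known. The named regions are the 12 with the most reads at 4 h of IL-4, and the 10 with the most at 2 h among those called at 2 h with IL-4 alone. They also include up to 8 with the most reads with both at 2 h, up to 8 called in all 3 untreated and no IFNg knockdown library, up to 6 per direction by adjusted p, and those at genes of the activation and signalling lists. One region that this rule names is not reported here. Same-background libraries deviated together from their group means, with correlations over regions of 0.283 (scramble), 0.416 (shJunB) and 0.217 (shCEBP-beta). The pairing comes from the shared shRNA in the labels. A reference genome was not used here, so sequences of regions outside promoters are not shown.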

Additional observations from a re-analysis of the deposited data

Results flagged for a closer look

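In 6 lost regions the reads were higher with IFNg plus IL-4 than with IL-4 alone at 2 h, with the whole counting interval above 2-fold, although both cytokines had no island there at 4 h and IL-4 had one. The difference between the times was not tested, since each condition had 1 library. The ratio at 2 h was 4.70 (95% interval 3.6 to 6.23) in a region 37.9 kb from Gm46911 on chromosome 5. It was 4.21 (3.10 to 5.80) at Cert1, which encodes a ceramide transporter, with 223 reads with both and 53.1 with IL-4. It was 3.10 (2.25 to 4.34) at Pik3c2a, a class II phosphoinositide kinase gene, with 161 against 52.0. It was 2.95 (2.57 to 3.39) near Foxo1, 2.87 (2.2 to 3.76) in a region 51.6 kb from Ndp and 2.70 (2.05 to 3.58) in a region 293.5 kb from Sucla2. Per kb of called length the log2 ratio was 1.34 near Foxo1, 0.76 at Cert1, 0.32 near Gm46911, 0.30 at Pik3c2a, 0.29 near Ndp and 0.08 near Sucla2. With the scaled control subtracted it was 2.49 at Pik3c2a, against 1.63 without.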

How the results depend on the processing

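The number of lost regions was 2287 with islands merged over the 7 libraries without an shRNA, 1713 with islands within 1000 bp merged, 1479 at an FDR of 1e-05 for the IL-4 island and 2021 with abutting islands merged, a setting chosen after seeing the data. It was 1123 with islands within 5000 bp merged, 1302 at an authors' fold of at least 2 and 1239 with at least 50 normalised reads. At 50 reads the share called was 50.4% for IL-4 at 2 h, 14.0% for both at 2 h, 13.8% for untreated scramble and 17.7% for untreated shCEBP-beta cells, and at an FDR of 1e-05 for every island 41.7% were called for IL-4 at 2 h. The counts at 2 h were 64 lower and 10 higher of 161 lost regions called in both libraries, against 11.6 and 13.6 percent of all such regions. Per kb of called length they were 19 lower and 9 higher, against 2.22 and 8.43 percent of all regions. There the log2 ratio of both to IL-4 turned to 0.074 at Itgb3 and 0.0632 at Cd163. Other scalings gave 341 to 446 lower and 26 to 40 higher, against 14.2 to 16.1 percent and 14.9 to 21.7 percent of all regions. In the edgeR fit 15 lost regions rose and 52 fell when regions with an island in at least 3 of 6 libraries were tested with missing values filled (5817 of all regions rose and 5468 fell there). That setting changed the filter and the filling together, and the cause was not tested. Without the replicate block for the shRNA background 1 of the 58 lost regions rose and 8 fell, against 3506 and 3224 of all 17047 regions. With DESeq2 0 rose and 8 fell, against 3444 and 3382 of all regions. Leaving out each shRNA pair gave 0 to 1 risen and 4 to 11 fallen lost regions, and 2906 to 2942 risen and 2660 to 2913 fallen regions over all. Of the 12 lost regions called, 3 (Ccdc9b, Pde3b and Nav2) kept the call under the 6 other fits of the same regions, and 0 of the 12 changed sign. With gaps of up to 20 kb 229 lost regions lay in groups of 3 or more, and with 100 kb 556, both gaps chosen after seeing the data. Alternative activation genes with a lost region numbered 7 with the span alone and with 10 kb either side, while those with a kept region numbered 1 and 8. Depth limits small regions most: those with few reads can be missed in a library without being absent.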

Other observations

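Start sites held by lost regions included genes with no place in the lists above. The region over the start of Cd163, a scavenger receptor for haemoglobin, had 217.3 normalised reads with IL-4 at 2 h, 116.8 at 4 h, 122.6 with both at 2 h and 115.6 in untreated scramble cells, and none in the other backgrounds. The start-site region of Myo3b had 1020.4 reads at 2 h and 287.3 at 4 h of IL-4, 290.9 with both and 67.0 with IFNg at 2 h. In knockdown cells it had 42.7 reads in untreated shCEBP-beta cells and 423.8, 637.0 and 222.7 after IFNg in scramble, shJunB and shCEBP-beta cells. The start-site region of Optc, which encodes the extracellular matrix protein opticin, had 251.0 and 263.2 reads at 2 h and 4 h of IL-4 and was called in no other library. That of Plac1 had 146.9 and 120.5 and was likewise called in no other. Tnk2, a tyrosine kinase gene, had 163.3 and 187.2 with IL-4, 64.8 and 84.5 in untreated scramble and shCEBP-beta cells, and 279.8, 245.6 and 196.8 after IFNg in scramble, shJunB and shCEBP-beta cells. Grasp had 122.4 and 127.9 with IL-4, and 179.8 to 312.5 in every knockdown library, untreated and after IFNg. The region over the start of Flrt3 had 272.4 and 107.5 with IL-4, 223.2 with both and 188.8 with IFNg at 2 h. It also had 129.3 and 125.0 in scramble and shJunB cells after IFNg. These regions were chosen for their reads at 4 h of IL-4 among those that hold a start site.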
